A study of Mus musculus with 8 samples.

Results

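The expression of 10 genes of bile acid synthesis and its feedback control was followed in mouse liver with a permanently active form of the kinase IKK2. They are the enzymes Cyp7a1, Hsd3b7, Cyp8b1, Akr1d1, Cyp27a1, Cyp7b1, Slc27a5 and Baat and the nuclear receptors Nr1h4 and Nr0b2, chosen by symbol. All 10 were measured, each by 1 probe set annotated to that gene alone, among 19938 genes in all. The tested livers came from 4 transgenic mice that express constitutively active IKK2 from the LAP promoter, called IKK2ca here. The other 4 came from wild type control mice. Both groups were 4 weeks old and of mixed C57BL/6 and NMRI stock, crossed back to C57BL/6 at least 4 times. The LAP promoter drives expression in hepatocytes, whereas the arrays read RNA of the whole organ, so fewer cells of a type and less RNA per cell cannot be told apart. Values are log2 expression per probe set and array, so a difference of 1 is a 2-fold change. They compare 1 gene between livers, not different genes with each other.

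Hepatocytes turn cholesterol into bile acids along a classic route, opened by Cyp7a1, and an alternative route, opened by Cyp27a1 and continued by Cyp7b1. Bile acids then bind the nuclear receptor FXR, the product of Nr1h4. FXR switches on Nr0b2, which encodes SHP, a receptor without a DNA-binding domain. SHP in turn restrains the factors LRH-1 and HNF4 at the genes of Cyp7a1 and Cyp8b1, which closes a feedback loop. Inflammation of the liver is known to lower several of these enzymes, and the comparison shows how each step of the loop read when IKK2, the kinase that activates NF-kB, was switched on in hepatocytes.

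Of the bile acid genes only the repressor Nr0b2 passed the test, as lower in IKK2ca livers, and none of the 8 enzymes did. Its call was lost in 6 of 14 alternative settings of the fit. The enzymes Hsd3b7 and Cyp27a1 had log2 fold changes of like size, -0.94 and -0.93 against -0.91 for Nr0b2. Of the 10 members 1 was lower (Nr0b2), 0 were higher and 9 did not pass in limma's test with Benjamini-Hochberg adjustment over all probe sets tested. Of all 19938 genes, 1.67% were lower and 4.67% higher, together 6.34%. The share of higher genes among the calls was 73.7%. It was 62.6% on quantile-normalized values and 86.4% on arrays brought to a common median. At an unadjusted p under 0.05 stood 6 members, 5 lower and Baat higher, against 33.6% of all genes, 18.3% being lower. The groups did not overlap for 4 members, Nr0b2, Hsd3b7, Cyp27a1 and Cyp8b1, all lower in IKK2ca livers, against 11.2% of all genes that were lower without overlap. Log2 fold changes were negative for 8 of the 10, against 61.6% of all genes, and their median was -0.53, beside -0.07 over all genes. It was -0.24 without IKK2ca replicate 2, the liver with the lowest readings for 7 members.

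Array medians lay between 4.88 and 5.08. Upper quartiles ran from 6.87 to 7.06 in IKK2ca arrays and from 6.76 to 6.85 in control arrays. IKK2ca replicate 2 had the lowest median and the highest upper quartile. The kinase gene itself, Ikbkb, read 8.995, 9.09, 8.38 and 8.38 in IKK2ca replicates 1 to 4, and 7.79, 7.44, 7.85 and 7.77 in control replicates 1 to 4. Its highest readings were thus in IKK2ca replicates 1 and 2. Whether this probe set reads the transgene, the mouse's own gene or both is not given in the labels, so the readings do not measure either alone. The defining hepatocyte markers gave no call, with 0 of 9 past the threshold in limma and a median log2 fold change of 0.01. Asgr1 and Ttr, the 2 at an unadjusted p under 0.05, were lower, beside 18.3% of all genes. The mean log2 level of the list ran from 12.43 to 12.65 in IKK2ca livers and from 12.51 to 12.67 in control livers. These readings do not measure the share of hepatocytes in the organ. Markers of Kupffer cells and macrophages were called higher for 8 of 10 genes and those of monocytes for 6 of 7, against 4.67% of all genes. The mean log2 level of the macrophage list was 9.54, 10.5, 9.47 and 9.22 in IKK2ca replicates 1 to 4, and 7.94 to 8.31 in controls. That of the monocyte list was 6.40, 7.19, 5.71 and 5.97 in IKK2ca replicates 1 to 4, and 4.21 to 4.32 in controls. Both were highest in IKK2ca replicate 2, and their part in the results on bile acid genes was not tested. Over all genes this array also lay farthest from its group's mean, with a root mean square deviation of 0.305, against 0.155 to 0.203 for the other IKK2ca arrays and 0.142 to 0.181 for control arrays.

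The RefSeq promoter table (build GRCm38.p6) matched 6 of the 10 members. The 250 bases before the start site are given for the 4 genes whose groups did not overlap, since these are the members that read lower in every IKK2ca liver. The search covered both strands and 5 motifs, the NF-kB consensus, CAAGGNCA for LRH-1, CAAAGTCCA for HNF4, the FXR inverted repeat and the nuclear receptor half-site AGGTCA. Capitals mark matches to any of them but the half-site. The Nr0b2 window lies on the plus strand at chr4:133553126-133553375, that of Cyp8b1 on the minus strand at chr9:121916306-121916555. The Cyp27a1 window is on the plus strand at chr1:74713285-74713534 and that of Hsd3b7 on the plus strand at chr7:127800359-127800608.
Nr0b2: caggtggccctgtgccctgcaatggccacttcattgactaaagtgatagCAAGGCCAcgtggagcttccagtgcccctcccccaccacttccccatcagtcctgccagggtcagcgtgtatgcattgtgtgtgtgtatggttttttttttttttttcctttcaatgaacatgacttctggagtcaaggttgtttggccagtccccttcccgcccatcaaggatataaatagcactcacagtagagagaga
Cyp8b1: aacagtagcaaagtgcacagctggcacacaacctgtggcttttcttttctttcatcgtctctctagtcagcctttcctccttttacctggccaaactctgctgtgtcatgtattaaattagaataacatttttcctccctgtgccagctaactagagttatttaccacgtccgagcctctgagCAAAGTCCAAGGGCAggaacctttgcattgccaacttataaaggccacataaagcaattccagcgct
Cyp27a1: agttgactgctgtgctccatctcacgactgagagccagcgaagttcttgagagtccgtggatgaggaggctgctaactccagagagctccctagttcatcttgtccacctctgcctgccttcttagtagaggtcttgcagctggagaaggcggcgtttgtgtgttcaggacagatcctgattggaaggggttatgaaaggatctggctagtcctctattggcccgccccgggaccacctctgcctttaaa
Hsd3b7: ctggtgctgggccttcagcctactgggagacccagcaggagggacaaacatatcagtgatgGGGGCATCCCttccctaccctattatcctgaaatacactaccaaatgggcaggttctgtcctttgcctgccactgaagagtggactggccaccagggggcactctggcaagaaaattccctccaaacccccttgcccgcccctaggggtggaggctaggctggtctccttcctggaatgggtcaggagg

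In the Cyp8b1 window an HNF4 match at bases -67 to -59 and an LRH-1 match at bases -60 to -53, counted from the start site, overlap each other and form 1 capital run. The HNF4 motif occurs in 0.384% and the LRH-1 motif in 5.53% of 32817 promoter windows of the same length. The Nr0b2 window holds an LRH-1 match at bases -201 to -194. Hsd3b7 has an NF-kB match, readable on both strands, at bases -189 to -180, and 7.25% of all windows hold that consensus. The NF-kB spelling was made stricter after a first search had been seen, which ended an NF-kB match in the Nr0b2 window. The Cyp27a1 window has 0 matches to these motifs. The FXR inverted repeat, found in 0.00914% of all windows, is in none of the 6 member windows, that of Nr0b2 included. So strict a spelling is absent from nearly every window. Looser spellings and bases farther from the start site were not counted, so its absence does not show that a gene lacks an FXR site. The half-site, found in 14.0% of all windows, matched in those of Akr1d1 and Nr1h4, which are not printed. A match is a description of the letters, and binding was not measured.

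Cyp7a1 (probe set 10511375), the rate-limiting enzyme of the classic route, showed no difference between the groups beyond their spread. It read 9.87, 7.42, 10.94 and 10.22 in IKK2ca replicates 1 to 4, against 9.55, 8.62, 10.85 and 9.63 in control replicates 1 to 4. IKK2ca replicate 2 was below every control and replicate 3 above every control. Means were 9.61 ± 1.52 in IKK2ca livers and 9.66 ± 0.92 in control livers (SD, n = 4 each), a log2 fold change of -0.05 (SE 0.70 and adjusted p = 0.96 in limma). The 95% interval of this difference, -1.62 to 1.51, covers a 3.07-fold fall and a 2.85-fold rise, so these 8 livers fix neither a direction nor a size. The sign turned without IKK2ca replicate 2 (0.68), without control replicate 3 (0.34) and on median-centred arrays (0.027).

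Hsd3b7 (probe set 10557782), the dehydrogenase that acts on the hydroxylated sterol ring in both routes, was lower in all 4 IKK2ca livers. Its readings were 9.82, 8.82, 10.04 and 10.14 in IKK2ca replicates 1 to 4, against 10.76, 10.68, 10.39 and 10.76 in control replicates 1 to 4. The highest IKK2ca liver stood 0.25 below the lowest control. Its log2 fold change of -0.94 (SE 0.26 and adjusted p = 0.0568) missed the threshold. The adjusted p was 0.0131 without IKK2ca replicate 2, where the log2 fold change was -0.64. It was also under the threshold without IKK2ca replicates 3 or 4 (0.0465 and 0.0324) and without the dimmest 30% of probe sets (0.0463).

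Cyp8b1 (probe set 10597875) is the hydroxylase that makes cholic acid and so sets the mix of primary bile acids. This gene had the largest log2 fold change of the 10 members and differed most between livers of the IKK2ca group. It read 8.53, 6.71, 10.44 and 10.15 in IKK2ca replicates 1 to 4, against 11.13, 10.54, 10.84 and 10.84 in control replicates 1 to 4. All 4 IKK2ca readings were below the lowest control, replicate 3 by 0.10 and replicate 2 by 3.82. The log2 fold change was -1.88, a 3.68-fold lower mean level (SE 0.68, 95% interval -3.41 to -0.35, adjusted p = 0.0997). Left out of the fit, IKK2ca replicate 2 took that value to -1.13 (adjusted p = 0.110). Without IKK2ca replicate 3 it was -2.37 and passed the threshold (adjusted p = 0.0498).

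Akr1d1 (probe set 10537306), the reductase that gives the sterol ring system its bent shape, read 10.20, 9.42, 10.64 and 10.66 in IKK2ca replicates 1 to 4. In control replicates 1 to 4 it read 10.59, 10.56, 10.70 and 10.61. IKK2ca replicates 1 and 2 fell below all controls, while replicates 3 and 4 lay inside the control range. The difference on the log2 scale was -0.39 (SE 0.24, adjusted p = 0.264), and -0.12 without IKK2ca replicate 2.

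**Figure D1:**
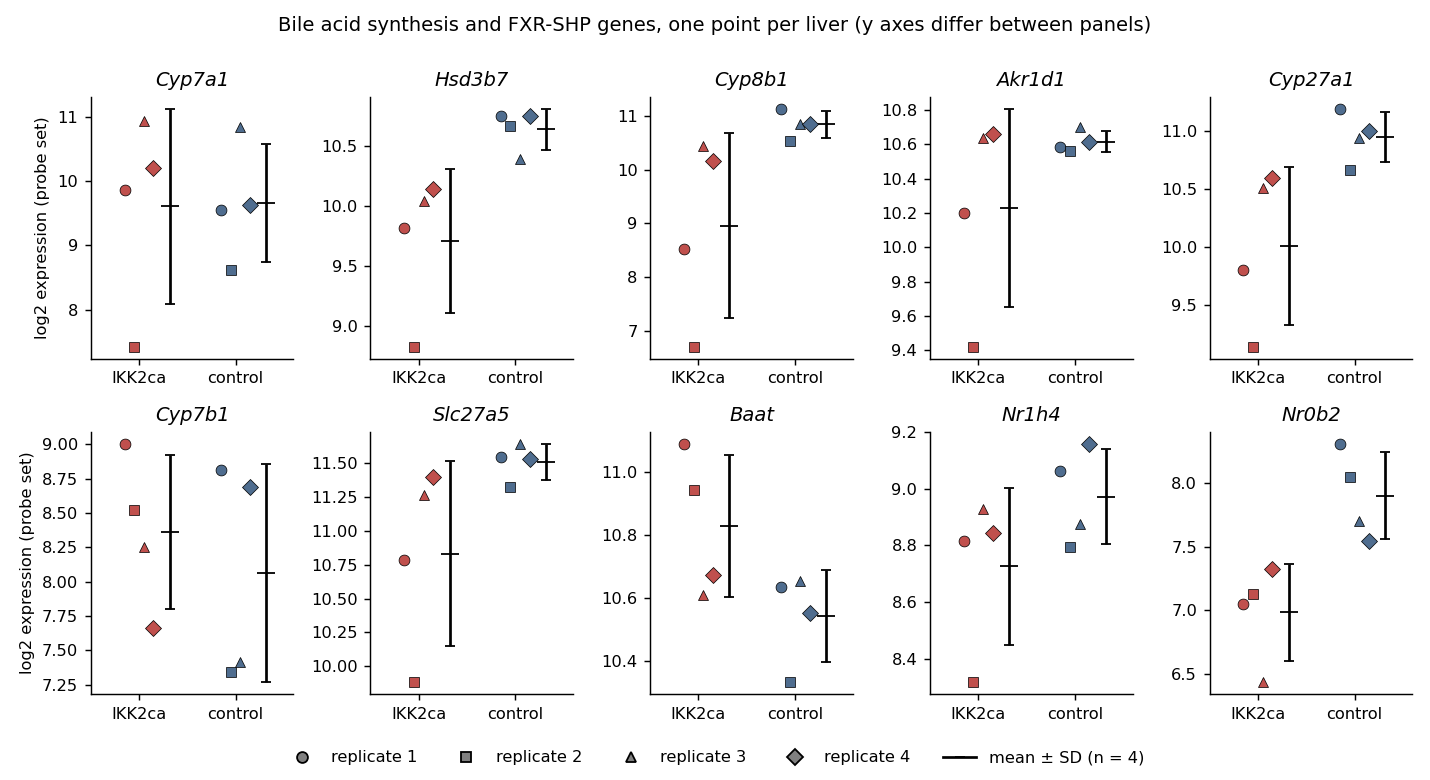
Log2 expression (vertical axes, scaled per panel) of each member in 4 IKK2ca livers (red, left) and 4 control livers (blue, right), with marker shapes for replicate numbers and bars for the mean ± SD. IKK2ca replicate 2 (square) is the lowest point for 7 of the 10 genes, and the groups do not overlap for Hsd3b7, Cyp8b1, Cyp27a1 and Nr0b2.

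On the alternative route, Cyp27a1 and Cyp7b1 differed in how they read. Cyp27a1 (probe set 10347481), the mitochondrial hydroxylase of the sterol side chain, read 9.80, 9.15, 10.51 and 10.59 in IKK2ca replicates 1 to 4, against 11.19, 10.66, 10.94 and 10.997 in control replicates 1 to 4. The groups did not overlap, and IKK2ca replicate 4 came within 0.072 of the lowest control. The log2 fold change was -0.93, a 1.91-fold lower mean level (SE 0.29, adjusted p = 0.0716). This became -0.65 without IKK2ca replicate 2 (adjusted p = 0.0792). The test was passed without IKK2ca replicates 3 or 4 (adjusted p = 0.0481 and 0.0345).

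Cyp7b1 (probe set 10497381), which hydroxylates the oxysterols that Cyp27a1 makes, read 9.003, 8.52, 8.25 and 7.67 in IKK2ca replicates 1 to 4, against 8.81, 7.34, 7.41 and 8.69 in control replicates 1 to 4. Here the controls formed 2 pairs, replicates 1 and 4 high and replicates 2 and 3 low, and IKK2ca replicate 1 lay above them all. With a log2 fold change of 0.30 (SE 0.39, 95% interval -0.57 to 1.16, adjusted p = 0.589) the gene did not pass. Cyp7b1 is known as a male-biased gene of mouse liver. Xist, the transcript of the inactive X chromosome of females, read 2.95 to 3.37 in IKK2ca arrays and 3.21 to 3.39 in control arrays. All these readings lie under the array medians, so no array stood out by a high Xist reading. What sets the 2 pairs of controls apart was not tested. A list of other male-biased liver genes had the same 2 pairs of controls, with mean log2 levels of 10.2, 7.003, 6.35 and 9.77 in control replicates 1 to 4. In IKK2ca replicates 1 to 4 that list stood at 4.86, 4.58, 4.88 and 5.79, below every control. Of its 5 measured genes 3 fell (Slco1a1, Hsd3b5 and Cyp4a12a) and 0 rose, with a median log2 fold change of -3.45, whereas Cyp7b1 had no call. Elovl3 at -3.45 and Cyp2d9 at -0.44 did not pass (adjusted p = 0.0933 and 0.370 in limma). All Hsd3b5 and Elovl3 readings in IKK2ca livers, and most of Cyp4a12a, lie under the array medians, so the size of these falls is uncertain. Leaving out 1 array at a time ended the call of Hsd3b5 in 5 of 8 cases and that of Cyp4a12a in 7 of 8, while Slco1a1 stayed called in all 8. Median centring and trended robust moderation also ended the calls of Hsd3b5 (adjusted p = 0.0613 and 0.0673) and Cyp4a12a (0.067 and 0.0741).

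The conjugating enzymes also differed from each other. Slc27a5 (probe set 10560045) joins bile acids to coenzyme A before conjugation. It read 10.78, 9.88, 11.26 and 11.40 in IKK2ca replicates 1 to 4, against 11.54, 11.32, 11.64 and 11.53 in control replicates 1 to 4. In IKK2ca livers 3 of 4 readings were below all controls, and replicate 4 lay within the control range. On the log2 scale the fold change was -0.68 (SE 0.28, adjusted p = 0.130), and -0.36 without IKK2ca replicate 2.

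Baat (probe set 10512895), which couples the activated bile acid to taurine or glycine, leaned the other way. Readings were 11.09, 10.94, 10.61 and 10.67 in IKK2ca replicates 1 to 4, against 10.63, 10.33, 10.65 and 10.55 in control replicates 1 to 4. In IKK2ca livers 3 of 4 readings were above all controls, with replicate 3 inside their range. Its log2 fold change of 0.29 (SE 0.13 and adjusted p = 0.146) was positive in all 14 alternative settings, over 0.20 to 0.37, and called in 0 of them.

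**Figure D2:**
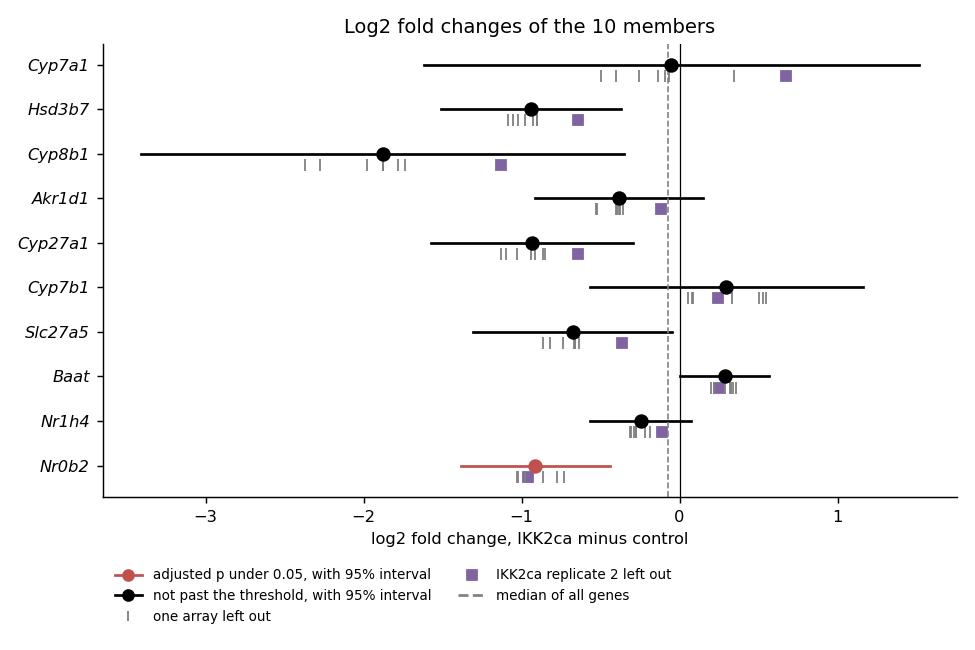
Log2 fold changes (horizontal axis, IKK2ca minus control) of the 10 members from limma with 95% intervals, a red line for the member past the threshold, and below each line the values with 1 array left out. Without IKK2ca replicate 2 (purple squares) Cyp8b1 stands at -1.13 and Cyp7a1 at 0.68, while Nr0b2 stands at -0.96.

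The feedback receptors read as follows. Nr1h4 (probe set 10371784), the gene of FXR, read 8.81, 8.32, 8.93 and 8.84 in IKK2ca replicates 1 to 4, against 9.06, 8.79, 8.88 and 9.16 in control replicates 1 to 4. Only IKK2ca replicate 2 lay below every control, and the other 3 overlapped them. The log2 fold change was -0.25 (SE 0.14, 95% interval -0.57 to 0.08, adjusted p = 0.243), and -0.11 without IKK2ca replicate 2.

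Nr0b2 (probe set 10508887), the gene of SHP, fell in IKK2ca livers. It read 7.05, 7.13, 6.44 and 7.32 in IKK2ca replicates 1 to 4, against 8.30, 8.04, 7.70 and 7.54 in control replicates 1 to 4. The lowest IKK2ca liver was here replicate 3, and the groups were 0.22 apart at their nearest points. Means were 6.98 ± 0.38 in IKK2ca livers and 7.90 ± 0.34 in control livers (SD, n = 4 each), a log2 fold change of -0.91 and a 1.88-fold lower mean level (SE 0.21, 95% interval -1.39 to -0.44, adjusted p = 0.0403 in limma). Without IKK2ca replicate 2 it was -0.96 (adjusted p = 0.0356). The call ended without IKK2ca replicate 1 (adjusted p = 0.110), without control replicates 1, 2, 3 or 4 (0.0931, 0.112, 0.0876 and 0.0607) and on median-centred arrays (0.0679). In all 14 alternative settings the value stayed between -1.05 and -0.73.

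A common order held for 7 members across the IKK2ca livers, lowest in replicate 2, next in replicate 1 and higher in replicates 3 and 4. They were Cyp7a1, Hsd3b7, Cyp8b1, Akr1d1, Cyp27a1, Slc27a5 and Nr1h4, and 24.4% of all genes had that order. The Ikbkb probe set and both macrophage and monocyte lists were highest in replicate 2 and next highest in replicate 1, as given above; whether these move together beyond 4 livers was not tested. Nr0b2, Baat and Cyp7b1 did not follow the order. The spread among IKK2ca livers exceeded that among controls for 9 members, against 59.4% of all genes. Akr1d1 had an SD of 0.578 in IKK2ca livers and 0.0618 in control livers, a ratio of 9.35, or 4.18 without IKK2ca replicate 2. For Cyp8b1 the SDs were 1.72 in IKK2ca livers and 0.243 in control livers, a ratio of 7.06, or 4.24 without that liver. The median ratio was 2.38 over the members and 1.18 over all genes, and without that liver 1.55 and 0.916. With it left out the spread was larger in IKK2ca livers for 6 members.

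**Figure D3:**
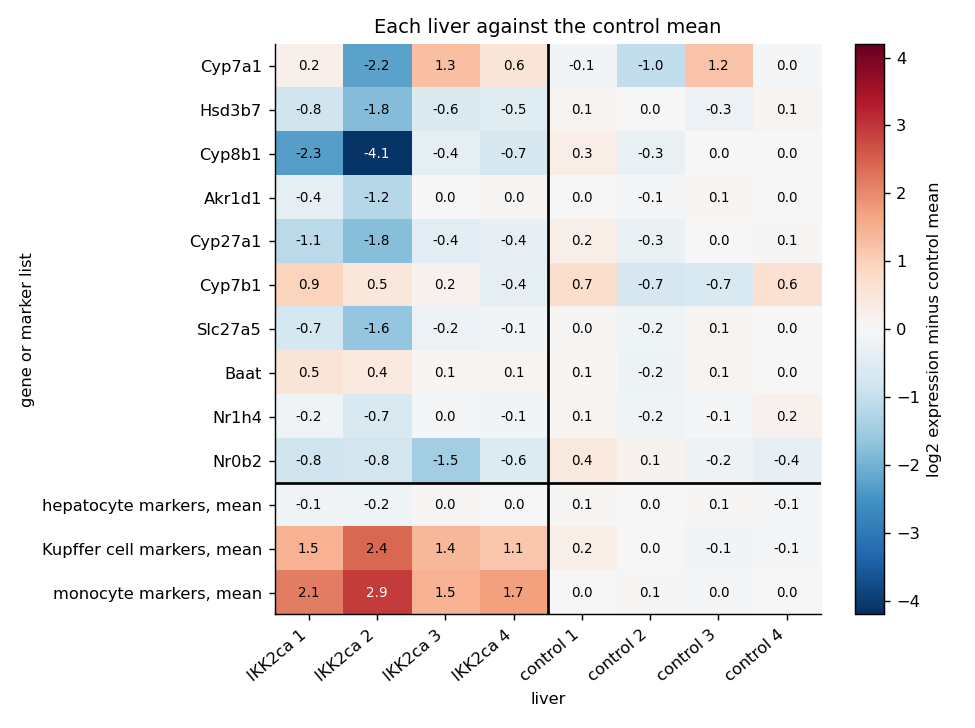
Log2 expression of each member, and mean of 3 marker lists, in every liver minus the mean of the 4 controls (colour and printed value; columns are livers, IKK2ca left of control). Cyp8b1 in IKK2ca replicate 2 is the deepest blue, while the macrophage and monocyte lists are above the control mean in all 4 IKK2ca livers.

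The genes most like Cyp7a1 and Nr0b2 were found by the root mean square difference of log2 values, each centred on its own mean over the 8 arrays, among 18712 named genes. Closest to Cyp7a1 were Cyp17a1, a steroid hydroxylase (0.482), Klb, the co-receptor through which the gut hormone FGF15 acts on liver (0.677), and Amy1, an amylase (0.684). Cyp17a1 read 9.20, 8.37, 10.6 and 10.7 in IKK2ca replicates 1 to 4, against 9.46, 8.66, 10.8 and 9.19 in control replicates 1 to 4. Like Cyp7a1 it was lowest in replicate 2 of each group. Closest to Nr0b2 were the kinase gene Sgk2 (0.266), the membrane protein gene Pllp (0.278) and the urinary protein gene Mup5 (0.290). Likeness over these arrays fixes a similar difference between the groups, so their log2 fold changes of -0.78, -0.68 and -0.77 are a description.

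Around the members, calls in other steps of the pathway stand beside 6.34% of all genes, 4.67% higher and 1.67% lower. Of 6 genes listed with the sterol and bile acid hydroxylases, 1 rose and 0 fell, with a median log2 fold change of -0.20. The riser was Star, no hydroxylase but the protein that carries cholesterol into mitochondria, where Cyp27a1 resides. Star read 7.32, 8.43, 5.43 and 7.30 in IKK2ca replicates 1 to 4, against 4.24, 4.07, 4.13 and 4.04 in control replicates 1 to 4. Every IKK2ca liver was above every control, replicate 2 the most and replicate 3 the least. Its log2 fold change was 3.00 (SE 0.49, adjusted p = 0.0134), of uncertain size since all its control readings lie under the array medians. The call ended without IKK2ca replicate 1 and without control replicates 2 or 3 (adjusted p = 0.0582, 0.0584 and 0.0529). The 5 hydroxylases did not pass, Cyp2c70, which makes muricholic acids in mice, among them at -0.25 (adjusted p = 0.222).

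In peroxisomes the sterol side chain is shortened before conjugation. Of 9 genes listed with this step 1 fell and 0 rose, and the median log2 fold change was -0.33. The acyltransferase gene Acnat2, no enzyme of the shortening itself, fell at a log2 fold change of -0.81 (SE 0.20, limma adjusted p = 0.0486). It read 6.57, 6.89, 7.51 and 7.33 in IKK2ca replicates 1 to 4, against 7.72, 8.14, 7.64 and 8.02 in control replicates 1 to 4. The groups did not overlap, but the call was lost in 6 of the 8 fits with 1 array left out, IKK2ca replicates 1 or 2 and each control, where the adjusted p ran from 0.0722 to 0.127. It was lost on median-centred arrays as well (0.0627). Scp2, the thiolase of this pathway, stood at -0.84 (SE 0.27, adjusted p = 0.0773).

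Receptors and regulators around FXR and SHP gave 0 calls among 15 genes in limma's test, with a median log2 fold change of 0.07. An unadjusted p under 0.05 was reached by 5 of the 15, 2 higher and 3 lower, beside 33.6% of all genes. The list includes the activators that SHP restrains, Nr5a2 (LRH-1) at 0.23 (adjusted p = 0.170) and Hnf4a at 0.09 (adjusted p = 0.4002). Klb had the largest change in size, -0.57 (SE 0.36, adjusted p = 0.274). FXR target genes other than Nr0b2 likewise gave 0 calls among 7 in limma, with a median of -0.06. The 3 with an unadjusted p under 0.05 were all higher, beside 33.6% of all genes in either direction. They were Slc51b, Mafg at 0.23 (adjusted p = 0.128) and Scarb1 at 0.39 (adjusted p = 0.0540). The bile salt export pump gene Abcb11 stood at -0.06 (SE 0.12, adjusted p = 0.725). Slc51b, a subunit of the basolateral bile acid exporter, read 6.75, 7.68, 5.39 and 5.74 in IKK2ca replicates 1 to 4, against 5.11, 5.45, 5.31 and 5.03 in control replicates 1 to 4. IKK2ca replicate 3 overlapped the controls, and the log2 fold change was 1.16 (SE 0.42, adjusted p = 0.0975).

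Among 15 transporters of bile acids and sterols 1 rose, 2 fell and 12 did not pass, with a median log2 fold change of -0.26. Of all genes 4.67% were called higher and 1.67% lower. Abcc4, a basolateral exporter of bile acids, read 7.03, 7.15, 6.83 and 6.24 in IKK2ca replicates 1 to 4, against 5.71, 6.05, 6.08 and 5.63 in control replicates 1 to 4. It rose without overlap, at a log2 fold change of 0.95 (SE 0.19 and adjusted p = 0.0294). Abcg5, which forms a sterol exporter with Abcg8, read 8.34, 8.71, 8.87 and 8.97 in IKK2ca replicates 1 to 4, against 9.65, 9.56, 9.09 and 9.48 in control replicates 1 to 4. It fell by 0.72 (SE 0.16, adjusted p = 0.0370), the highest IKK2ca liver being 0.12 below the lowest control. Slco1a1, an uptake transporter, fell by 5.47 (SE 0.74, adjusted p = 0.00651), while the main uptake transporter gene Slc10a1 stood at -0.74 (SE 0.25, adjusted p = 0.0843). In IKK2ca livers 3 of 4 Slco1a1 readings lie under the array medians, so the size of its fall is uncertain. The calls of Abcc4 and Abcg5 were lost in 5 and 4 of the 8 fits with 1 array left out. Those were IKK2ca replicate 1 and each control for Abcc4 (adjusted p from 0.0646 to 0.1), and IKK2ca replicate 1 and control replicates 1, 2 or 4 for Abcg5 (0.0791 to 0.105). Median centring also ended the call of Abcg5 (0.0579).

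**Figure D4:**
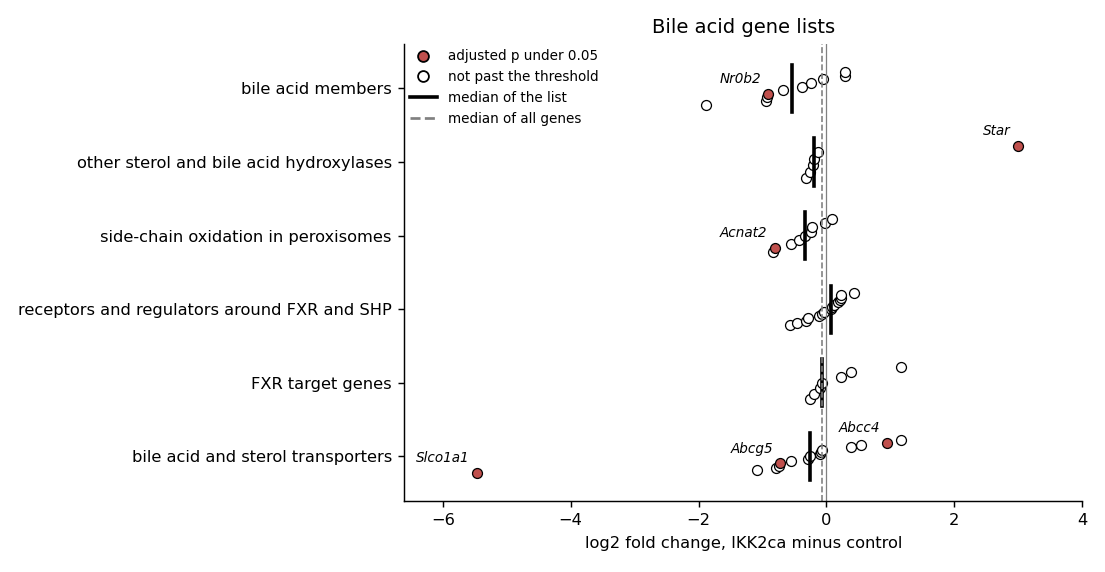
Log2 fold changes (horizontal axis, IKK2ca minus control) of the genes of 6 bile acid lists, with filled red points for adjusted p under 0.05, thick bars for list medians and a dashed line for the median of all genes. Nr0b2, Star, Acnat2, Abcc4, Abcg5 and Slco1a1 are the points past the threshold, Star at 3.00 and Slco1a1 at -5.47.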

How the data were processed

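Affymetrix arrays of 8 livers were analysed. The authors deposited 1 value per probe set and array, and the log2 scale was read from the values themselves. For these values the submitters' processing notes name Affymetrix Expression Console. Its version, settings and normalization: not given in the sources used here. Array medians lay within 0.3 and upper quartiles within 0.5 of each other, so no scaling was added. Of 35556 probe sets, 21789 carry 1 gene symbol, 1621 several and 12146 none. The first kind was fitted with limma 3.58.1 in R 4.3.3, group being the only term. Tests were two-sided, with Benjamini-Hochberg adjustment over those 21789 and a threshold of 0.05. The brightest probe set by the mean of 8 arrays then stood for a gene. Scanner files and detection calls were not used here. Signal was therefore not compared with background, and precision is limited by the number of arrays. The labels call the 4 arrays of each group biological replicates. On simulated data, with 50 genes changed at each size, the fit called 49 and 50 at log2 changes of 2 and -2. It called 44 at 1 and 40 at -1. Spread was simulated as equal in both groups, so genes that varied more in IKK2ca livers were not covered.

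Alternatives were quantile normalization, centring on array medians, leaving out the dimmest 30% of probe sets, gene means over probe sets, trended robust moderation, the replicate number as a block, and leaving out each array in turn. All members were named, with the called genes of each pathway or male-biased list, the largest change of each pathway list, the 2 largest changes of each cell type list, and the 3 genes most like Cyp7a1 and Nr0b2. Besides these, Cyp2c70, Nr5a2, Hnf4a, Abcb11, Slc10a1, Elovl3, Cyp2d9, Krt19 and Dcn were named after their values were seen. So were Ikbkb, Xist, Mafg and Scarb1. Members and lists were chosen with earlier results of these data known. The NF-kB and FXR motifs were given stricter spellings after a first search had been seen, which ended an NF-kB match in the Nr0b2 window.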

Additional observations from a re-analysis of the deposited data

Results flagged for a closer look

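In each group of 4 livers, the distance of the outermost reading from its nearest neighbour was divided by the group's whole range, and set against Dixon's 95% critical value. Of 66 groups of readings examined, covering the members, the named pathway genes and the list means, 2 exceeded it, and chance alone does so in about 1 group in 20. Slco1a1 in IKK2ca livers gave 0.840, because replicate 4 read 5.54 and the other 3 read 3.46 to 3.79. Klb in control livers gave 0.857, because replicate 2 read 7.62 and the other 3 read 8.496 to 8.64. For the 10 members 0 groups exceeded it.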

How the results depend on the processing

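The count of called genes, 1265, was 715 with each array centred on its median and between 202 and 2580 with 1 array left out. The members called lower, 1 as reported, numbered 0 after centring, 2 without the dimmest 30% of probe sets and 0 to 4 with 1 array left out. The 4 were Nr0b2, Hsd3b7, Cyp27a1 and Cyp8b1, without IKK2ca replicate 3. The members called higher stayed at 0 in all 14 settings. Without the arrays IKK2ca 1, 3 or 4, the totals were 202, 2034 and 2580, and without control replicates 1 to 4 they were 269, 202, 238 and 300. The log2 fold change of Cyp7a1, -0.05 as reported, ran from -0.49 to 0.68 with 1 array left out, positive without IKK2ca replicate 2 (0.68) and control replicate 3 (0.34), and was 0.027 after centring. The other 9 members kept their sign in all 14 settings. With the replicate block 844 genes were called and the members called lower were again 1 (Nr0b2), while Acnat2, Abcg5 and Hsd3b5 were no longer called (adjusted p = 0.0633, 0.068 and 0.0508). Deviations from the group means correlated at 0.278, -0.03, 0.274 and -0.125 between livers of the same number. Between livers of different numbers the correlations ran from -0.262 to 0.182. These values do not decide whether the numbers are pairs. The labels do not say so, and the main fit had no pairs. Why these values moved was not tested. With no detection calls, readings under the array medians limit the size of changes.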

Other observations

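Calls in cell type lists other than those of macrophages and monocytes stand beside 4.67% of all genes higher and 1.67% lower. Of 6 bile duct genes 0 passed limma's test and 1 had an unadjusted p under 0.05, the keratin Krt19 (-0.25, adjusted p = 0.0885). The largest changes of that list were -0.41 for Onecut1 and 0.36 for Sox9, and its median log2 fold change was -0.11. Of 8 stellate cell and fibroblast genes 2 rose, the collagen Col1a1 at 0.71 and the proteoglycan Dcn at 0.55, with a median of 0.41. Col3a1 stood at 0.66 (adjusted p = 0.0540). Of 8 sinusoidal endothelium genes the scavenger receptor Stab1 rose, at 0.80, and the median was 0.17, while Cdh5 stood at 0.48 (adjusted p = 0.0693). Among hepatocyte markers the largest changes were those of Asgr1 (-0.31, adjusted p = 0.113) and Ttr (-0.29, adjusted p = 0.138). In the macrophage list Lyz2 rose by 2.84 and Adgre1 by 1.74, and in the monocyte list Ccr2 by 3.72 and Itgax by 2.46.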
